A study of Homo sapiens with 3 samples.

Results

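Secretory products of the breast epithelium are described here through 7 of the 22494 genes with a symbol in the count tables: MUCL1, PIP, SCGB2A2, SCGB1D2, AZGP1, LTF and CLU. MUCL1 was picked because earlier results of these data placed it among the genes with the largest difference between the monocultures, and the other genes were picked by symbol as mammary secretory products. The levels below therefore describe the genes and support nothing beyond themselves. CAMA-1 is an established estrogen receptor-positive breast cancer line. Its drug-sensitive lineage carried the mVenus transgene, and its resistant lineage, selected by months of growth in the CDK4/6 inhibitor ribociclib, carried mCherry. Each spheroid began with 2000 plated cells, either 100% sensitive, 100% resistant or 50% of each. All were kept in 1 µM ribociclib (the labels list DMSO with it) and were harvested after 11 days and frozen viably. All 3 libraries were thus drug-treated, and none shows either lineage without the drug. The lineages were labelled populations, and the sources used here do not say whether either is 1 clone.

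Secretory epithelium of the breast releases small proteins into its lumen. MUCL1, also called small breast epithelial mucin, is a short glycosylated protein found mostly in mammary and salivary tissue. SCGB2A2 (mammaglobin A) and SCGB1D2 (lipophilin B) are secretoglobins that are known to form a complex with each other. PIP, the prolactin-induced protein, and AZGP1, zinc alpha-2-glycoprotein, are apocrine products that respond to androgen, LTF is the iron-binding milk protein lactoferrin, and CLU is the secreted chaperone clusterin. Milk caseins are made by differentiated alveolar cells under prolactin and STAT5.

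On GRCh37, in GENCODE 44 lifted over, which may differ from the annotation counted on, MUCL1 spans 55224302 to 55289792 on the plus strand of chromosome 12. SCGB1D2 (62009711 to 62012284) and SCGB2A2 (62037630 to 62040632) lie on the plus strand of chromosome 11 with 25.3 kb between them, in a run of secretoglobin genes that also holds SCGB1D1, SCGB2A1 and SCGB1D4. AZGP1 and PIP are both on chromosome 7 but far apart, and LTF is on chromosome 3.

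The stretch of 250 bases before the start site is shown for the leading gene and for the secretoglobin pair, whose UMIs are compared cell by cell further on. The sequences are RefSeq's, on GRCh38.p14, at chr12:54854266-54854515 for MUCL1, chr11:62269908-62270157 for SCGB2A2 and chr11:62241989-62242238 for SCGB1D2, all on the plus strand. Of the 7 genes, 6 had a promoter in that table, and CLU is named only.
MUCL1: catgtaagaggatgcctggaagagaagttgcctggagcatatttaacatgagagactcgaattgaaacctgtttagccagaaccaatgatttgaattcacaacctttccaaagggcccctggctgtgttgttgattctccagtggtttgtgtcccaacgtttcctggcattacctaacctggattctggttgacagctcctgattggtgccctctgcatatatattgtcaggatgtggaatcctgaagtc
SCGB2A2: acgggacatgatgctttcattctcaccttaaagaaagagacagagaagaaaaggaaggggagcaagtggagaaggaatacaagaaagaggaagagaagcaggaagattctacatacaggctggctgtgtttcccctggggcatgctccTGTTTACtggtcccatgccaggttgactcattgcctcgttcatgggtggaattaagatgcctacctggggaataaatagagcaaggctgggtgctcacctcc
SCGB1D2: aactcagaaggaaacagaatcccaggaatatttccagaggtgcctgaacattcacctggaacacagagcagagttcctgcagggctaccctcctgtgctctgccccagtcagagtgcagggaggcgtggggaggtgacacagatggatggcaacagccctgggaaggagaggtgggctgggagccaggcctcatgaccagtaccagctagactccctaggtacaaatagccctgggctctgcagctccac
Capitals mark the forkhead motif TGTTTAC, which lay 102 bases before the SCGB2A2 start and which 2.98% of 35116 promoter windows hold. Other motifs searched included TATAAA on the gene's strand (6.80% of windows) and, on both strands, AGGTCA for estrogen receptors (12.1%), AGATAA for GATA factors (9.17%) and TTCNNNGAA for STAT factors (6.57%). None of these motifs was in the MUCL1, SCGB1D2 or AZGP1 window. The forkhead motif overlapped no other motif.

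UMIs, the tags that count each captured RNA molecule once, were summed over the cells that the authors annotated. The 4 populations were sensitive cells of the monoculture (3329 cells), sensitive cells of the coculture (2059), resistant cells of the coculture (6292) and resistant cells of the monoculture (7557). Their summed depth ran from 70896822 to 270891547 UMIs and the median cell from 27622 to 35443 UMIs. There was 1 library per condition, so no test across samples was possible, no p-value is given, and the 95% intervals cover counting error only. G1 cells made up 89.0% of the sensitive monoculture and 49.7% to 55.3% of the other populations. Median mitochondrial shares were 20.9% in the sensitive monoculture and 15.2% to 17.3% elsewhere. Summed luminal markers reached 7568 to 9528 CPM (counts per 1000000 UMIs), and basal, fibroblast, immune and endothelial lists each stayed under 5 CPM. COL1A1 made up nearly all of the fibroblast list, at 2.4 to 3.61 CPM, with COL1A2 and DCN at 0 UMIs in both sensitive populations. The basal list summed to 4.96 CPM in monocultured sensitive cells, mostly through KRT14, a basal keratin, at 3.58 CPM. Elsewhere it summed to 1.35 to 1.65 CPM, with KRT14 at 0.221 to 0.711 CPM and VIM of the same list at 0.711 to 1.11 CPM. The part of KRT14 in the results for MUCL1 was not tested. Of 19205 annotated barcode sequences, 32 occurred in more than 1 library.

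Together the 7 genes took 4371 CPM in monocultured sensitive cells, 2192 in cocultured sensitive cells, 1738 in cocultured resistant cells and 1056 in monocultured resistant cells. MUCL1 and CLU made up nearly all of this in every population. MUCL1 led in sensitive cells, at 66.6% of the sum in monoculture, whereas CLU led in resistant cells, at 65.7% in monoculture. Between the least and the most abundant gene the levels spanned from 1 UMI of LTF to 280102 UMIs of MUCL1 in the sensitive monoculture.

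**Figure D1:**
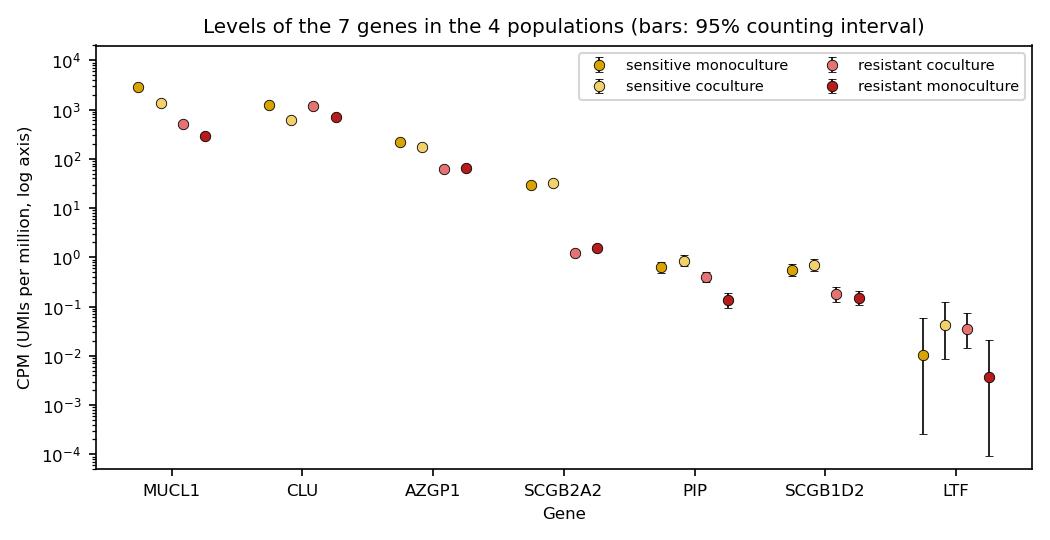
CPM of each gene (log axis) in the 4 populations, with 1 point per population and bars for the 95% counting interval. MUCL1 falls stepwise from 2910 to 296 CPM across the populations as ordered, CLU does not follow that order, and LTF lies under 0.05 CPM.

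MUCL1 was highest in sensitive cells grown alone and lowest in resistant cells grown alone, and the coculture values of both lineages lay between these. Its level was 2910 CPM (2899 to 2921) in monocultured sensitive cells and 1376 CPM (1368 to 1385) in cocultured sensitive cells. It was 509 CPM (506 to 512) in cocultured resistant cells and 296 CPM (294 to 298) in monocultured resistant cells. No neighbours in this order had overlapping counting intervals, which says nothing of the spread between cells or between libraries. By UMIs, with no correction for length, MUCL1 ranked 31 of 16189 genes detected in sensitive monoculture and 444 of 17374 in resistant monoculture.

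Sensitive cells held 2.11-fold less MUCL1 in coculture than alone (2.10 to 2.13), a log2 ratio of -1.08 on the CPM + 1 scale. Resistant cells held 1.72-fold more in coculture than alone (1.71 to 1.74, log2 0.78). Both cocultured populations came from the same library. Between the monocultures MUCL1 was 9.85-fold lower in resistant cells (9.77 to 9.92), the contrast it was chosen on, and within the coculture it was 2.70-fold lower (2.68 to 2.73). The other lineage's transgene had 132 UMIs in 118 of 1245 sensitive and 183 in 174 of 4106 resistant coculture barcodes, with doublets among them. This put other-lineage RNA at 5.46% of the UMIs of these sensitive and 2.48% of those of these resistant barcodes. Annotated cells with 2 or more transgene UMIs numbered 1127 and 3932, as many as those barcodes without the other transgene. The share in annotated cells was therefore not measured, and the correction may not hold for them. With these shares taken off the annotated populations, the log2 ratios were -1.03 in sensitive cells, 0.71 in resistant cells and -1.55 within the coculture. In G1 cells alone the sensitive ratio was -0.72 and no longer past 2-fold, and the resistant ratio was 0.93. The sensitive ratio also fell short of 2-fold as a mean over cells and with each cell thinned to 10000 UMIs, at -0.97 in both.

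CLU shared the opposite signs of MUCL1 but not its order over lineages. Clusterin binds misfolded proteins outside the cell and is often raised under stress. It stood at 1216 CPM (1209 to 1223) in monocultured and 607 CPM (602 to 613) in cocultured sensitive cells, a 2.0-fold lower level in coculture (1.98 to 2.02). In resistant cells it stood at 694 CPM (691 to 697) alone and 1166 CPM (1162 to 1171) in coculture, 1.68-fold higher (1.67 to 1.69). Resistant cells thus held less CLU than sensitive cells between the monocultures (1.75-fold, 1.74 to 1.76) and more within the coculture (1.92-fold, 1.9 to 1.94). With the other-lineage shares estimated above taken off, which were not measured in annotated cells, the log2 ratio within the coculture went from 0.94 to 1.04 and so past 2-fold. Nearly every cell carried it, at 99.7% to 100% of cells. In G1 cells alone the sensitive log2 ratio was -0.82 against -1.0 over all cells, which ended the 2-fold call. This ratio lay at the limit itself, and the call was also lost at -0.99 with a pseudocount of 10 CPM, at -0.97 with TMM factors and at -0.98 as a mean over cells and after thinning.

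AZGP1 separated the lineages and moved little with coculture. Its level was 215 CPM (212 to 218) and 175 CPM (172 to 178) in monocultured and cocultured sensitive cells, and 64.2 CPM (63.3 to 65.2) and 60.9 CPM (59.8 to 61.9) in monocultured and cocultured resistant cells. Resistant cells held 3.35-fold less between the monocultures (3.28 to 3.42) and 2.87-fold less within the coculture (2.80 to 2.95). Coculture went with a 1.23-fold lower level in sensitive cells (1.20 to 1.26) and a 1.06-fold lower level in resistant cells (1.03 to 1.08). The share of cells with a UMI was 80.1% and 87.0% in the sensitive populations and 56.8% and 59.8% in the resistant ones. After thinning each cell to 10000 UMIs these shares were 63.5%, 63.6%, 32.3% and 33.7%, so the gap between the sensitive populations was not seen at equal depth.

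**Figure D2:**
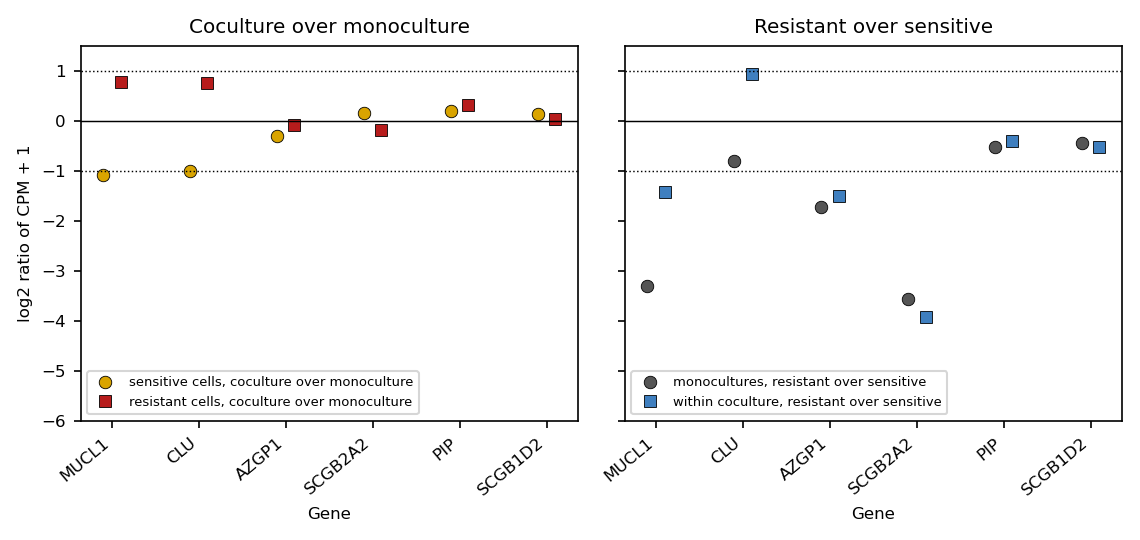
log2 ratio of CPM + 1 for the 6 genes with at least 50 UMIs, coculture over monoculture in each lineage (left) and resistant over sensitive (right), with dotted lines at 2-fold. MUCL1 and CLU lie on opposite sides of 0 in the 2 lineages, at -1.08 and 0.78 and at -1.0 and 0.75, and SCGB2A2 has the lowest values on the right.

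With a minimum of 50 UMIs over the 2 populations compared, 6 of the 7 genes had enough UMIs. PIP and SCGB1D2 were under 1 CPM in every population, where the pseudocount of 1 CPM keeps any ratio short of 2-fold. Only MUCL1, CLU, AZGP1 and SCGB2A2 could thus pass. In sensitive cells, coculture over monoculture, 2 were lower (MUCL1 and CLU) and 0 higher, where 1.04% of 12326 genes were lower and 1.53% higher. In resistant cells 0 passed in either direction, where 0% of 13155 genes were lower and 0.0380% higher. Between the monocultures 3 were lower (MUCL1, AZGP1 and SCGB2A2), where 4.10% of 12968 genes were lower and 2.16% higher. Genes higher in resistant cells were 34.5% of those past 2-fold there, and 44.5% with TMM scaling, which moved the median gene by 0.09. Within the coculture the same 3 genes were lower, where 1.29% of 12772 genes were lower and 0.454% higher. The median log2 ratio of the 6 genes was -0.08, 0.17, -1.27 and -0.98 in these comparisons, against -0.05, 0.03, -0.07 and 0.00 for all genes. Since the genes were chosen with such values known, these counts describe them only.

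Single cells differed far more in MUCL1 than in CLU. The median MUCL1 level of a cell was 597 CPM in monocultured and 258 CPM in cocultured sensitive cells, and 138 CPM in cocultured and 58.2 CPM in monocultured resistant cells. The highest cells held 110214, 99723, 79505 and 79549 CPM in the same order. The 10% of cells with most MUCL1 UMIs held 70.3%, 73.2%, 71.5% and 76.7% of its UMIs, against 29.3% to 32.7% for CLU and 37.5% to 53.8% for AZGP1. Cells at 1000 CPM or more made up 36.4% of sensitive and 5.07% of resistant cells grown alone, and 20.6% and 7.90% in coculture. Without the 10% of cells with most MUCL1 UMIs the log2 ratios kept their signs, at -1.23 in sensitive and 1.05 in resistant cells, the latter then past 2-fold. That alternative was chosen after the data had been seen.

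The share of cells with a MUCL1 UMI was 98.6% (98.2 to 99) and 98.4% (97.8 to 98.9) in monocultured and cocultured sensitive cells. It was 95.6% (95 to 96.1) in cocultured and 79.2% (78.3 to 80.1) in monocultured resistant cells. The first 3 of these shares sat near their ceiling, and all depend on depth. Thinned to 10000 UMIs per cell, with at most 3 cells left out of a population, they were 93.6%, 86.0%, 74.0% and 50.7% in the order of the levels. No cell type that should lack the gene was in these libraries, so the share that free RNA alone gives was not measured.

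**Figure D3:**
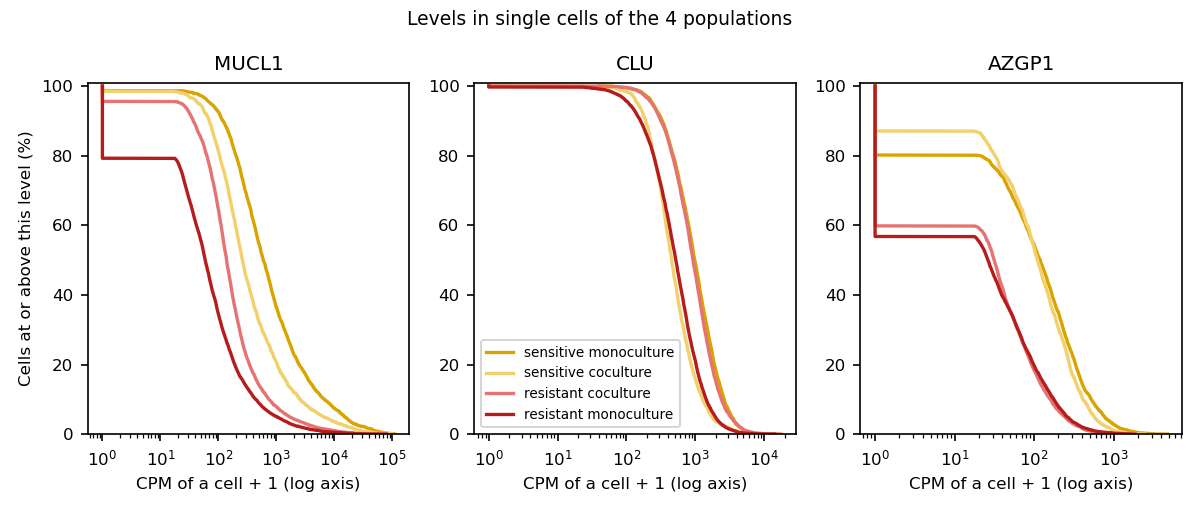
Share of cells at or above each level (y, percent) against the level in the cell (x, CPM + 1, log axis) for MUCL1, CLU and AZGP1, with 1 line per population. The MUCL1 lines are spread over the whole range with long tails above 10000 CPM, the CLU lines pair monocultured sensitive with cocultured resistant cells, and the AZGP1 lines pair by lineage.

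G1 cells held more MUCL1 than cells in S or G2M in all 4 populations. The G1 level over the level in cycling cells was 2.80-fold (2.76 to 2.85) and 2.57-fold (2.53 to 2.60) in monocultured and cocultured sensitive cells, and 2.35-fold (2.32 to 2.38) and 1.78-fold (1.75 to 1.80) in cocultured and monocultured resistant cells. For CLU the same ratio was 1.46-fold to 1.63-fold, and for AZGP1 it was 0.919-fold to 1.19-fold. S and G2M cells differed less, at 1212 and 1076 CPM in monocultured and 756 and 760 CPM in cocultured sensitive cells, and at 332 and 291 CPM in cocultured and 209 and 226 CPM in monocultured resistant cells. The share of G1 cells moved with the sensitive comparison, and within G1 cells that ratio was -0.72, as given above.

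Most of the sensitive cells lay in different clusters of the authors' annotation in the 2 cultures, and these clusters differed in MUCL1. Clusters 4 and 8 held 58.4% and 20.5% of monocultured sensitive cells, with 2459 and 6421 CPM of MUCL1. Clusters 3 and 7 held 52.8% and 30% of cocultured sensitive cells, with 1264 and 826 CPM. Within cluster 3 the level was 1.06-fold lower in coculture (1337 against 1264 CPM), and within cluster 4 it was 2.11-fold higher (2459 against 5187 CPM, 84 cocultured cells). In cluster 3, 1 monocultured cell held 4149 of the 11253 MUCL1 UMIs, and the direction there without that cell was not tested. Of the 6 clusters with at least 20 cells of both cultures, MUCL1 was lower in coculture in 4 and higher in 2, with log2 ratios from -1.20 to 1.08. CLU was lower in 3, higher in 2 and within its counting interval in 1. The authors made these clusters from expression, which may include these genes, so levels within them are not independent of MUCL1, and this split was chosen after the data had been seen.

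Resistant cells lay in the same main clusters in both cultures, and there the coculture level was mostly the higher one. Cluster 0, the largest, held 458 CPM of MUCL1 in monoculture and 804 in coculture. Clusters 6 and 10 held the least in monoculture, 58.7 and 56.4 CPM, and 172 and 123 CPM in coculture. MUCL1 was higher in coculture in 7 of 9 clusters and lower in clusters 11 and 13, which had 51 to 89 cells each. Among monocultured cells, 1 cell held 318 of 955 MUCL1 UMIs in cluster 11, and 1 held 545 of 1031 in cluster 13. The direction in these clusters without those cells was not tested. CLU was higher in coculture in 9 of 9, with log2 ratios from 0.31 to 0.99. AZGP1 was higher in 3, lower in 2 and within its counting interval in 4.

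**Figure D4:**
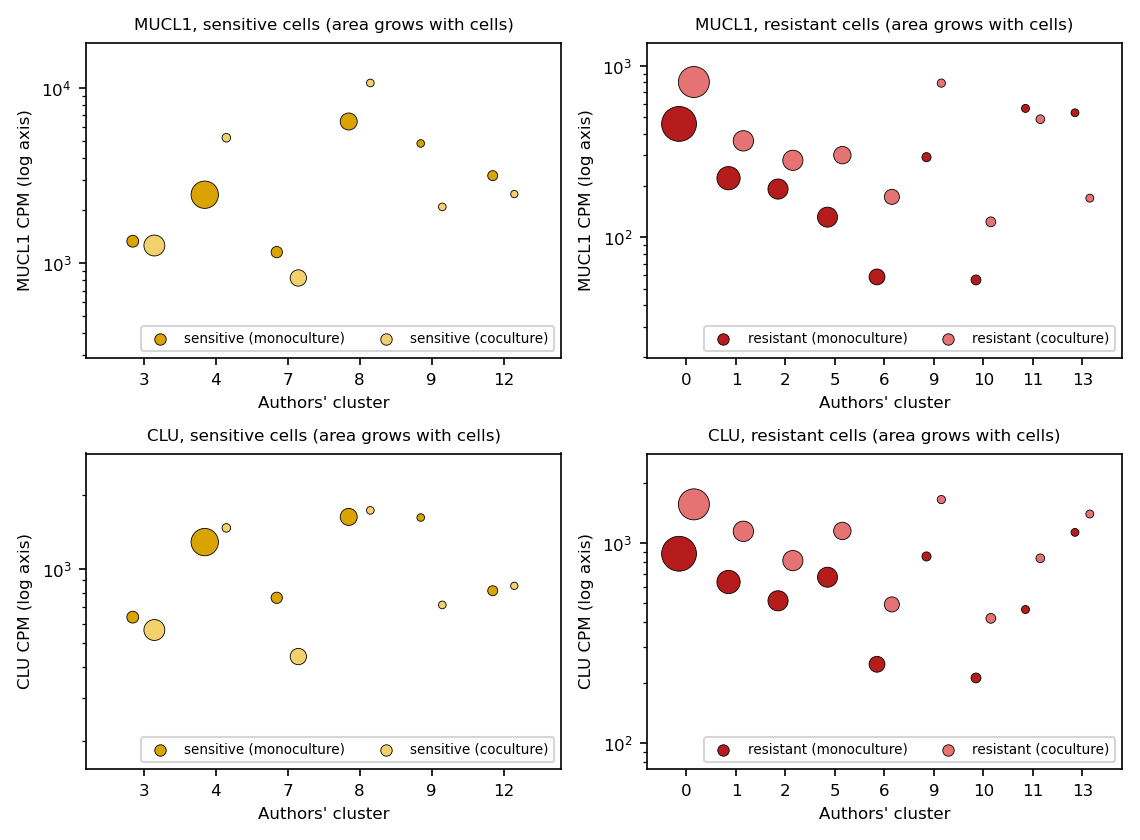
CPM (log axis) of MUCL1 (top) and CLU (bottom) in the authors' clusters with at least 20 cells of both cultures, for sensitive (left) and resistant cells (right), with larger circles for more cells. In resistant cells the coculture circle is the higher one in 7 of 9 clusters for MUCL1 and in 9 of 9 for CLU, whereas in sensitive cells the direction differs between clusters.

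SCGB2A2 was a gene of very few cells. Its population levels, 29.2 CPM (28.1 to 30.3) and 32.5 CPM (31.2 to 33.9) in monocultured and cocultured sensitive cells and 1.54 CPM (1.39 to 1.69) and 1.22 CPM (1.07 to 1.39) in monocultured and cocultured resistant cells, rested on a handful of cells in 3 of the 4 populations. In cocultured resistant cells most of the UMIs were spread over cells with 1 UMI. Of the 19237 annotated cells, 36 had 10 or more UMIs, a limit set after the counts had been seen, with 10 UMIs in the lowest cell above it and 9 in the highest below. They were 18 and 12 cells of the sensitive populations, 2 of cocultured resistant cells and 4 of monocultured resistant cells. They held 95.2%, 96.2%, 28.3% and 92.5% of the SCGB2A2 UMIs of these populations. The highest cell, a cocultured sensitive one, had 915 UMIs, 2.89% of its RNA and 41.2% of the UMIs of those 12 cells.

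Of these 36 cells, 34 were called G1 and 23 lay in cluster 12. There SCGB2A2 reached 698 CPM in 156 monocultured and 2259 CPM in 27 cocultured sensitive cells. In the latter, 1 cell held 915 of the 1608 UMIs. SCGB1D2, the partner gene 25.3 kb away, had a UMI in 24 of them (66.7%, 49.0 to 81.4), against 0.557% (0.457 to 0.673) of the other cells. Median depth was 26855 UMIs in the 36 cells and 32430 in the others. Their median MUCL1 level was 1285 CPM against 594 in the other cells of the sensitive monoculture, and 2728 against 257 in cocultured sensitive cells. Summed over the cells, MUCL1 was 3075 against 2909 CPM in the sensitive monoculture and 2937 against 1370 CPM in cocultured sensitive cells. Summed CLU was 460 against 1219 CPM in the former and 904 against 606 CPM in the latter, where the median cells held 441 and 451 CPM. The other cells here include cycling cells and other clusters. Over all of cluster 12, MUCL1 summed to 3157 and 2481 CPM and CLU to 815 and 853 CPM in monocultured and cocultured sensitive cells. G1 cells of the whole sensitive populations held 3199 CPM of MUCL1 in monoculture and 1947 CPM in coculture. PIP had 0 UMIs in all 36. Of the neighbouring secretoglobin genes, SCGB2A1 had 7 UMIs there, and SCGB1D1 and SCGB1D4 had 0.

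**Figure D5:**
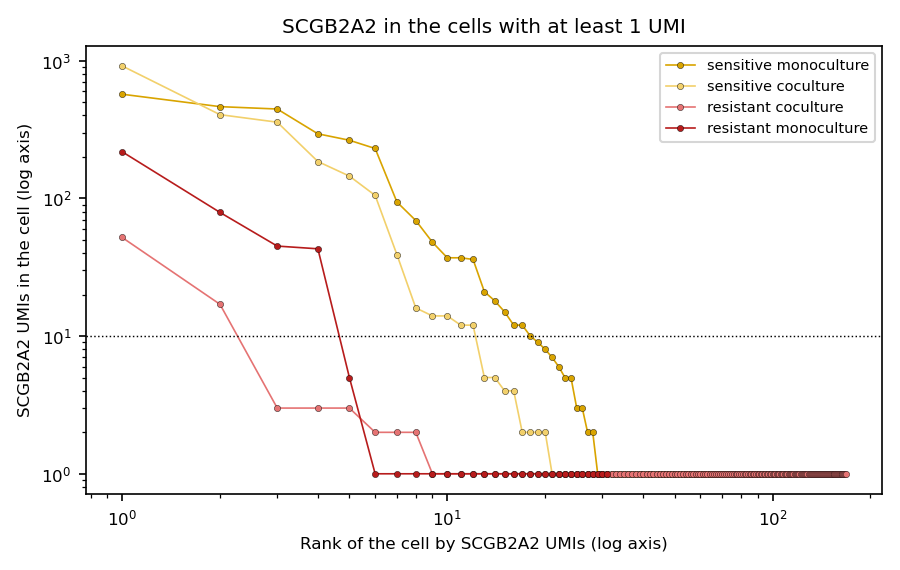
SCGB2A2 UMIs of each cell with at least 1 (y, log axis) against the cell's rank in its population (x, log axis), with a dotted line at 10 UMIs. The 2 sensitive populations have 18 and 12 cells at or above the line, up to 570 and 915 UMIs, and the resistant populations have 2 and 4, followed by long runs of cells with 1 UMI.

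Resistant cells held 19.0-fold less SCGB2A2 between the monocultures (17.2 to 21.1) and 26.6-fold less within the coculture (23.3 to 30.5), log2 -3.57 and -3.92. Without the 36 cells SCGB2A2 stood at 1.42 CPM in monocultured and 1.25 CPM in cocultured sensitive cells, and at 0.114 CPM in monocultured and 0.877 CPM in cocultured resistant cells. These log2 ratios were then -1.12 and -0.26 on the CPM + 1 scale, which understates differences at such levels. The ratio of cocultured to monocultured sensitive cells turned from 0.15 to -0.11, and that of resistant cells from -0.19 to 0.75. With the other-lineage shares estimated above taken off, which were not measured in annotated cells, and the 36 cells kept, the ratio of resistant cells was -0.88. Outside the 36 cells most positive cells had 1 UMI. A UMI was found in 2.67% of cocultured resistant cells (2.29 to 3.1, median 30686 UMIs) and in 0.410% of monocultured resistant cells (0.279 to 0.582, median 35443 UMIs), and the coculture library also held the cell with 915 UMIs. The part of free RNA in these shares was not tested.

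SCGB1D2 was counted 54 and 50 times in monocultured and cocultured sensitive cells and 41 and 36 times in monocultured and cocultured resistant cells. Its level was 3.71-fold lower in resistant cells between the monocultures (2.42 to 5.71) and 3.91-fold lower within the coculture (2.50 to 6.18). On the CPM + 1 scale, which shrinks such low levels, these were -0.44 and -0.53 and not past 2-fold. In resistant monoculture 13 of the 41 UMIs came from 1 cell, which was also high in SCGB2A2. The cells high in SCGB2A2 held 32 of the 54 UMIs of monocultured and 18 of the 50 of cocultured sensitive cells. Without the 36 cells the log2 ratios of resistant over sensitive cells were -0.18 between the monocultures and -0.31 within the coculture.

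PIP was low in all 4 populations, and LTF had at most 7 UMIs in a population. PIP had 61 UMIs in each sensitive population (0.634 and 0.860 CPM in monoculture and coculture), 81 in cocultured resistant cells (0.406 CPM) and 36 in monocultured resistant cells (0.133 CPM). Resistant cells held 4.77-fold less PIP between the monocultures (3.11 to 7.41) and 2.12-fold less within the coculture (1.5 to 2.99). On the CPM + 1 scale, which shrinks such low levels, these were -0.53 and -0.40. In monocultured sensitive cells 30 of the 61 UMIs came from 6 cells. PIP was 3.05-fold higher in cocultured than in monocultured resistant cells (2.04 to 4.66), log2 0.31. Of the 81 UMIs, 16 came from 1 cell and 13 from another, and without these 2 cells, which held 35.8%, the level was 0.261 against 0.133 CPM. Cells with 3 or more PIP UMIs numbered 6, 4, 3 and 1, and none of them was among the cells high in SCGB2A2. LTF had 1, 3, 7 and 1 UMIs in the populations as ordered by MUCL1 and never more than 1 in a cell, so no fold is given.

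The genes whose levels were most like those of MUCL1 over 27 groups of population and cluster were found by Pearson's r of log2 CPM + 1 among 4661 genes. They were TSTD1, a small sulfurtransferase (0.94), LASP1, an actin-binding protein (0.91), VPS36, a part of the ESCRT-II sorting complex (0.91), COPA, a coatomer subunit (0.90), and CSNK1E, a casein kinase (0.89). TSTD1 went from 708 CPM in sensitive to 326 CPM in resistant cells grown alone, a smaller span than that of MUCL1. AZGP1 had an r of 0.87 with MUCL1 and CLU one of 0.60. The groups share libraries and base levels by lineage, so these values are descriptions.

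AZGP1 was most like TMBIM6 (0.89), a membrane protein of the endoplasmic reticulum, RPN2 (0.89), a subunit that attaches sugars to secreted proteins, and LAPTM4A (0.88), a lysosomal membrane protein. CLU was most like DHRS7 (0.90), DNAJB9 (0.88), a chaperone of the endoplasmic reticulum, and CD59 (0.84), a complement inhibitor. SCGB2A2 was most like COX6A1 (0.81), TSC22D3 (0.78) and IDI1 (0.78), and SCGB1D2 had SCGB2A2 first at 0.89, followed by NAPA (0.77) and IDI1 (0.77). Both secretoglobins were high in 1 group, cluster 12 of monocultured sensitive cells, at 698 CPM of SCGB2A2 and 10 CPM of SCGB1D2. Elsewhere SCGB2A2 reached at most 13.9 CPM, and SCGB1D2 reached the level needed for such a list only in that group. The secretoglobins' values of r therefore rest largely on cluster 12 of monocultured sensitive cells. Among G1 cells thinned to 10000 UMIs, Spearman's rho of MUCL1 with AZGP1 was 0.29, 0.27, 0.18 and 0.19 in the 4 populations, and with CLU it was 0.13, 0.32, 0.07 and 0.08. With cocultured sensitive G1 cells split into 4 groups of equal size by thinned MUCL1 count, the mean AZGP1 count was 2.87 UMIs per 10000 in the highest group and 1.01 in the lowest. The median mitochondrial share was 23% in the highest group and 16.7% in the lowest, the median depth was 28529 and 33658 UMIs, and their part in this difference was not tested.

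Classical milk proteins were almost not counted. CSN2, CSN3 and LALBA had 0 UMIs in all 4 populations, which allows up to 0.0423 CPM in the least deeply counted one, and CSN1S1 had 1 UMI in each monoculture. PLIN2, which coats lipid droplets, went from 3.94 to 6.53 CPM between monocultured and cocultured sensitive cells (log2 0.61), MFGE8, a milk fat globule protein, from 1.61 to 2.06 CPM (0.23), and CEL, a milk lipase, from 0.571 CPM in sensitive to 0.808 CPM in resistant monoculture (0.20). Of the 10 genes listed 3 had enough UMIs, and 0 were past 2-fold in any comparison, where 0% to 4.10% of all genes passed in a given direction. CEL was under 1 CPM in every population, so with the pseudocount of 1 CPM it could not pass. Among the other secretoglobins, 2 of 8 had enough UMIs in sensitive cells. These were SCGB3A1 with 0.436 and 0.395 CPM and SCGB2A1 with 0.416 and 0.395 CPM in monoculture and coculture. At these levels the pseudocount of 1 CPM lets neither pass 2-fold, so no count is read from them. In resistant monoculture SCGB2A1 stood at 0.0591 CPM (16 UMIs, against 40 in sensitive monoculture) and SCGB3A1 at 0.908 CPM (246 against 42 UMIs).

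Among mucins and goblet cell products, 3 of 9 listed genes with enough UMIs were past 2-fold higher with coculture in sensitive cells and 1 lower, where 1.53% and 1.04% of all genes were, with a median log2 ratio of 0.74 against -0.05 for all genes. TFF3, a trefoil peptide that is secreted with mucins, went from 93.3 to 377 CPM (log2 2.0), MUC5B, a gel-forming mucin, from 1.9 to 8.1 CPM (1.65), and CLCA2, a membrane protein of epithelia, from 5.44 to 0.564 CPM (-2.04). TFF1, named after its values had been seen, went from 1873 to 4566 CPM (1.28). Between the monocultures 4 of 10 were higher in resistant cells and 1 lower, where 2.16% and 4.10% of all genes were, with MUC5B at 2.65, TFF3 at 2.35 and, also named after their values had been seen, TFF1 at 1.29 and TFF2 at 1.06, and CLCA2 at -2.65. The median there was 0.18 against -0.07 for all genes.

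Of the mucosal defence genes, 1 of 4 was past 2-fold higher in cocultured sensitive cells and 0 lower, where 1.53% and 1.04% of all genes were. This was SLPI, a secreted protease inhibitor, at 3.49 and 9.92 CPM in monoculture and coculture (1.28). S100A9, a calcium-binding protein, went from 16.3 to 9.21 CPM in the same comparison (-0.76). Between the monocultures 0 of 5 passed, where 2.16% of all genes were higher and 4.10% lower, with S100A9 at -0.46 and S100A7 at 0.45. S100A7 had 3 UMIs in sensitive and 111 in resistant monoculture (0.0312 and 0.41 CPM). At such levels the pseudocount of 1 CPM shrinks the ratio and keeps it short of 2-fold. The median log2 ratio of the list was -0.03 and -0.12 in these comparisons, against -0.05 and -0.07 for all genes.

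Regulators of secretory genes mostly stayed within 2-fold. For them and for the apocrine genes below, the shares of all genes past it are those given for the mucins. PGR, the progesterone receptor and a target of the estrogen receptor, was the 1 of 10 past 2-fold in sensitive cells, at 14.6 CPM alone and 39.5 CPM in coculture (1.37). PRLR, the prolactin receptor, was the 1 of 10 past it between the monocultures, at 96.8 CPM in sensitive and 43.2 CPM in resistant cells (-1.14), and it was 70.3 CPM in cocultured sensitive cells (-0.45). Among androgen and apocrine genes, TMPRSS2, an androgen-induced protease, was 5.02 CPM in sensitive and 0.557 CPM in resistant cells grown alone (-1.95), the 1 of 6 past 2-fold. In sensitive cells it went from 5.02 to 2.43 CPM (-0.81) and GGT1 from 15.4 to 9.28 CPM (-0.68) with coculture, where 0 of 5 passed. In resistant cells, coculture over monoculture, 0 genes of these 6 lists were past 2-fold in either direction, where 0.0380% of 13155 genes were higher and 0% lower.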

How the data were processed

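Each condition gave 1 library, 3 in all, made with 10X Genomics 3' chemistry from cells of CAMA-1 spheroids. Per the labels, reads were processed with Cell Ranger 3.0.2 on GRCh37, and the authors deposited raw UMI counts per gene and barcode, with no normalization. The authors also deposited an annotation that gives each kept cell's phase, cluster and population and its mitochondrial percent, which was set with Seurat after limits of 3000 to 7000 genes, 2000 to 60000 UMIs and under 30% mitochondrial UMIs. A further 11 columns of it were not used. The methods state 2 or more transgene UMIs and a doublet filter, while the annotation keeps cocultured cells with 1, 1071 and 2050 cells of the sensitive and resistant monocultures with none, and no doublet call.

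Genes without a symbol, which took 0.523% to 0.591% of the UMIs, were dropped. UMIs were summed per population and scaled to CPM. Levels carry exact Poisson intervals, shares exact Clopper-Pearson intervals, and folds exact conditional binomial intervals, at 95%. A count of 0 allows up to 3 counts. log2 ratios used a pseudocount of 1 CPM, and 2-fold a log2 ratio of 1 with at least 50 UMIs. A gene under 1 CPM in both populations cannot reach 2-fold in this way. Likeness was taken over groups of 50 or more cells and genes whose mean reached 20 CPM. The text names the 7 genes, 5 genes most like MUCL1, 3 for each other gene that reaches 10 CPM in a group, and from each list the 2 largest log2 ratios between the monocultures and in sensitive cells, some of which, with 1 promoter motif, are not reported here. PECAM1 of the endothelial list was not matched. The genes and lists were chosen with earlier results of these data known. Ratios and intervals were tested on simulated Poisson sums, and likeness on simulated profiles with planted copies. These checks cover neither uneven cells nor likeness that rests on 1 group. Alternatives covered the pseudocount, TMM scaling (edgeR 4.0.16, R 4.3.3), phase, transgene limit, depth, averaging and other-lineage RNA. Other steps used Python 3.11.15, numpy 2.4.6, scipy 1.17.1, pandas 2.3.3 and matplotlib 3.10.9.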

Additional observations from a re-analysis of the deposited data

Results flagged for a closer look

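MUCL1 had a log2 ratio of coculture over monoculture of -1.08 in sensitive cells and 0.78 in resistant cells, and CLU had -1.0 and 0.75. In both genes the lineages moved in opposite directions, with 1 library per condition, and the difference between the lineages was not tested.

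Barcodes outside the authors' annotation also held cells high in SCGB2A2. Of 21135 such barcodes, 45 (0.213%) had 10 or more UMIs of it, up to 665, against 36 of 19237 annotated cells (0.187%). They were 18 barcodes of the sensitive monoculture, 25 of the coculture and 2 of the resistant monoculture. Of the 45, 38 had a mitochondrial share of 30% or more, as did 12848 of the 21135, and 28 carried no transgene UMI. In the sensitive monoculture, high-mitochondrial barcodes held 1165 CPM of MUCL1 against 2910 CPM in annotated cells. In the other libraries these barcodes held the higher level, at 921 against 736 CPM in the coculture and 441 against 296 CPM in the resistant monoculture.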

How the results depend on the processing

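No paired analysis was possible because each condition has 1 library, and no library could be left out. The MUCL1 log2 ratio kept its direction under every alternative run over whole populations. Within single clusters it ranged from -1.20 to 1.08 in sensitive and from -1.65 to 1.53 in resistant cells, coculture over monoculture. In sensitive cells, coculture over monoculture, it was -1.05 with TMM factors, -0.72 in G1 cells, -1.34 in cells with 2 or more transgene UMIs, -1.09 without the most deeply counted 10% of cells, -0.97 both as a mean over cells and after thinning to 10000 UMIs, -1.03 corrected for the other lineage, and -1.23 without the 10% of cells with most MUCL1. In resistant cells it was 0.76 with a pseudocount of 10 CPM, 0.71 both with TMM factors and corrected for the other lineage, 0.93 in G1 cells, 0.80 with 2 or more transgene UMIs and 1.05 without the 10% of cells with most MUCL1. Between the monocultures the values in the same terms were -3.26 (pseudocount), -3.18 (TMM), -3.06 (G1), -3.76 (transgene), -3.39 (depth), -3.25 (mean over cells and thinned) and -3.61 (top 10% out). Within the coculture they were -1.42 (pseudocount and TMM), -1.40 (G1), -1.62 (transgene), -1.51 (depth, mean over cells and thinned), -1.55 (corrected) and -1.33 (top 10% out).

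The number of genes past 2-fold in sensitive cells went from 2 to 1 with a pseudocount of 10 CPM or TMM factors and to 0 in G1 cells, and was unchanged in the other comparisons wherever the number was recomputed. As a mean over cells and after thinning to 10000 UMIs, MUCL1 (-0.97) and CLU (-0.98) were both short of 2-fold in sensitive cells. Single calls also changed in other comparisons where the number was not recomputed. MUCL1 was 1.05 in resistant cells without the 10% of cells with most MUCL1. Within the coculture CLU was 1.04 corrected for the other lineage, and SCGB2A2 was -0.26 without the 36 high cells. The share of cells with a MUCL1 UMI, in the order of levels, was 93.6%, 86.0%, 74.0% and 50.7% at 10000 UMIs, 84.1%, 69.5%, 54.6% and 35.1% at 5000 UMIs, and 95.7%, 93.9%, 85.1% and 58.0% for 2 or more UMIs. SCGB2A2 changed sign in sensitive cells (-0.78 with 2 or more transgene UMIs, -0.11 without the 36 high cells) and in resistant cells (0.75 without them). For the genes other than MUCL1, 84 of 163 alternative values stayed within the counting interval and 76 moved beyond it. The cause was not tested. Alternatives without the high SCGB2A2 or MUCL1 cells and within clusters were chosen after seeing the data. Counting intervals treat each UMI as independent, so they leave out the spread between cells. They also leave out the spread between libraries, which 1 library per condition cannot show.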
